A study of Artemia franciscana with 14 samples.

Results

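The adult genes described here were selected on their read levels: each reached at least 20 CPM (the read count of a gene, scaled so that all gene reads of its library sum to 1e6) in an adult female and in an adult male of the brine shrimp *Artemia franciscana*, and stayed at or below 2 CPM in each of 12 single embryos. Of the 19421 genes counted, 57 met this rule (0.293%), and of the 2507 genes at 20 CPM or more in both adults these are 2.27%. Gene numbers jg8898 to jg9983, a stretch that includes genes the study places on the Z chromosome, were left out, and 3 genes inside it met the rest of the rule (jg9215, jg9925 and jg9942). Because the rule used all 14 libraries, the contrast of adults and embryos defines the genes and is given as a description, without a test. The genes were called absent from embryos when they were proposed, but 46 of the 57 had at least 1 read in an embryo, so they are treated here as genes at or near 0 in embryos. With 2 CPM equal to between 5.34 and 14.9 reads in an embryo, such low levels rest on few reads.

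All animals were wild-type. The 12 embryos comprised 3 females and 3 males of an early stage, 1–2 days after fertilization (dpf), and 3 females and 3 males at 4 dpf. Early female replicate 3 and early male replicate 1 were taken at 1 dpf and the other 4 at 2 dpf, and all embryos developed inside the mother's brood pouch. Their sex was assigned by the authors from expressed single-nucleotide polymorphisms in Z(diff), the part of the Z chromosome that differs from the W. The adults were 1 female and 1 male of unstated age, dissected to remove the germline, and were sequenced from an equal RNA input, whereas the amount of RNA from an embryo was too low to be measured. With 1 library per adult sex, no difference between the adults could be tested. Nothing in the labels says that the embryos of a group came from separate broods, so p-values measure the spread between these embryos.

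An adult brine shrimp has tissues that an embryo lacks or is only forming. Among them are a working gut that secretes digestive enzymes, a chitinous cuticle, swimming muscle and the ducts and glands of reproduction. In arthropods, genes for digestive proteases and cuticle proteins often lie side by side as similar copies and are switched on late in development. None of the 57 genes can be given such a role here: the counts carry gene numbers only, and 0 of the identifiers matched the RefSeq gene table, so no gene has a name, a function or a sequence in the text below. For the same reason the tissue labels could not be checked against marker genes. Gene lengths were also not used here, so an order of genes by CPM is an order by share of reads and not by number of transcripts.

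The embryo libraries held 2669131 to 7463397 reads on genes, the adult female 3342959 and the adult male 1840926. The floor used here, 3 reads, is 0.402 to 1.12 CPM in an embryo. A pair of embryos stood apart: female replicate 12 at 1–2 dpf had reads on 6414 genes, against 9481 to 11352 in the other 11 embryos, and male replicate 8 at 4 dpf had the fewest reads of all and no read on any of the 57 genes. Without both of them the rule would take 66 genes. The adult libraries had reads on 7399 genes (female) and 7064 genes (male), fewer than every embryo but female replicate 12. PCR copies of a molecule were counted as separate reads. All intervals below treat reads as independent, so they cover the counting error of reads only and are too narrow for counts of molecules.

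In most genes used by adults, embryos had reads too. Of the 2507 genes at 20 CPM or more in both adults, 2109 (84.1%) also exceeded 20 CPM in at least 1 embryo, 260 (10.4%) had a highest embryo level between 5 and 20 CPM, 78 (3.11%) between 2 and 5 CPM, and 60 (2.39%) at most 2 CPM, 3 of which lay in the stretch left out. The median of their highest embryo level was 130 CPM, against 0.830 CPM for the 57 genes. Both reference genes that the study used for qPCR lay on the common side, with 608 CPM in the adult female, 308 CPM in the adult male and 76.4 to 1895 CPM (median 395) in the embryos for jg15373. The other, jg3163, had 313 and 187 CPM in the adults and 48.9 to 133 CPM (median 85.2) in the embryos. Of the histone acetylation and deacetylation factors with qPCR primers in the study, jg3349 (MOF) had 0.299 CPM in the adult female and 0 in the male. Both adults had 0 for jg7034 (TIP60) and jg3149 (CBP), against embryo medians of 7.27 and 26.3 CPM. The adults had 10.2 and 8.69 CPM of jg16372 (GCN5) and 95.4 and 30.4 CPM of jg8800 (SIRT1). Whether 0 reads in an adult library mean absent RNA was not tested. In these bulk libraries, fewer cells of a type and less RNA per cell cannot be told apart.

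**Figure D1:**
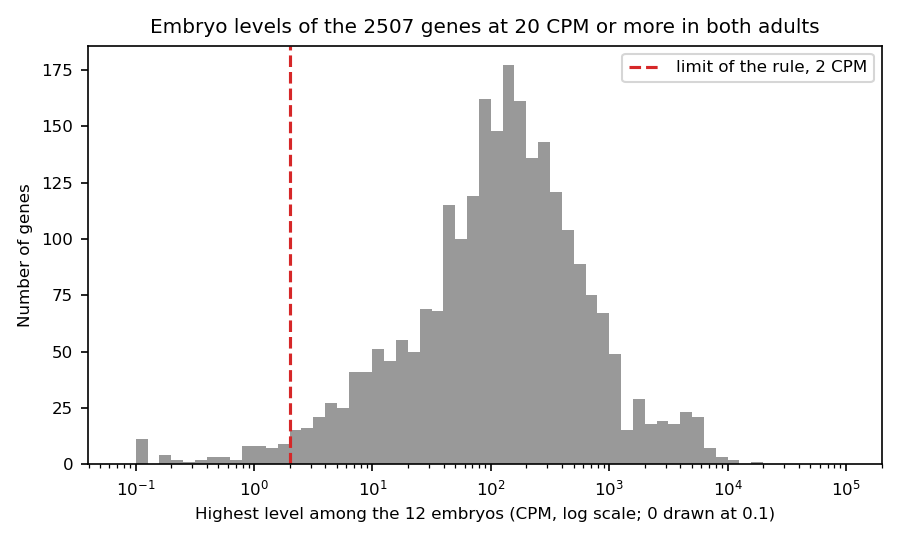
Histogram of the highest level among the 12 embryos (CPM, log scale, 0 drawn at 0.1) for the 2507 genes at 20 CPM or more in both adults, with the number of genes on the vertical axis and the limit of 2 CPM as a dashed line. The bulk of the genes lies around the median of 130 CPM, and 60 genes lie at or left of the line.

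In the adults, the 57 genes together took 109885 reads in the female (32871 CPM, 3.29% of the library) and 43844 reads in the male (23816 CPM, 2.38%). Their median level was 72.4 CPM in the female and 89.6 CPM in the male, close to the medians of 69.1 and 87.5 CPM over all 2507 genes. A handful of genes held most of these reads. In the female the 3 highest genes took 56.6% of the reads of the set and the 5 highest 72.5%, and in the male the shares were 54.7% and 68.8%. More than 1000 CPM was reached by 8 genes in the female, by 5 in the male and by 11 in either adult. Among the 100 genes with most reads in the adult female, 13 were at or below 2 CPM in each embryo whatever their level in the male, and 5 of these belong to the set. In the adult male the corresponding counts were 7 and 4.

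**Figure D2:**
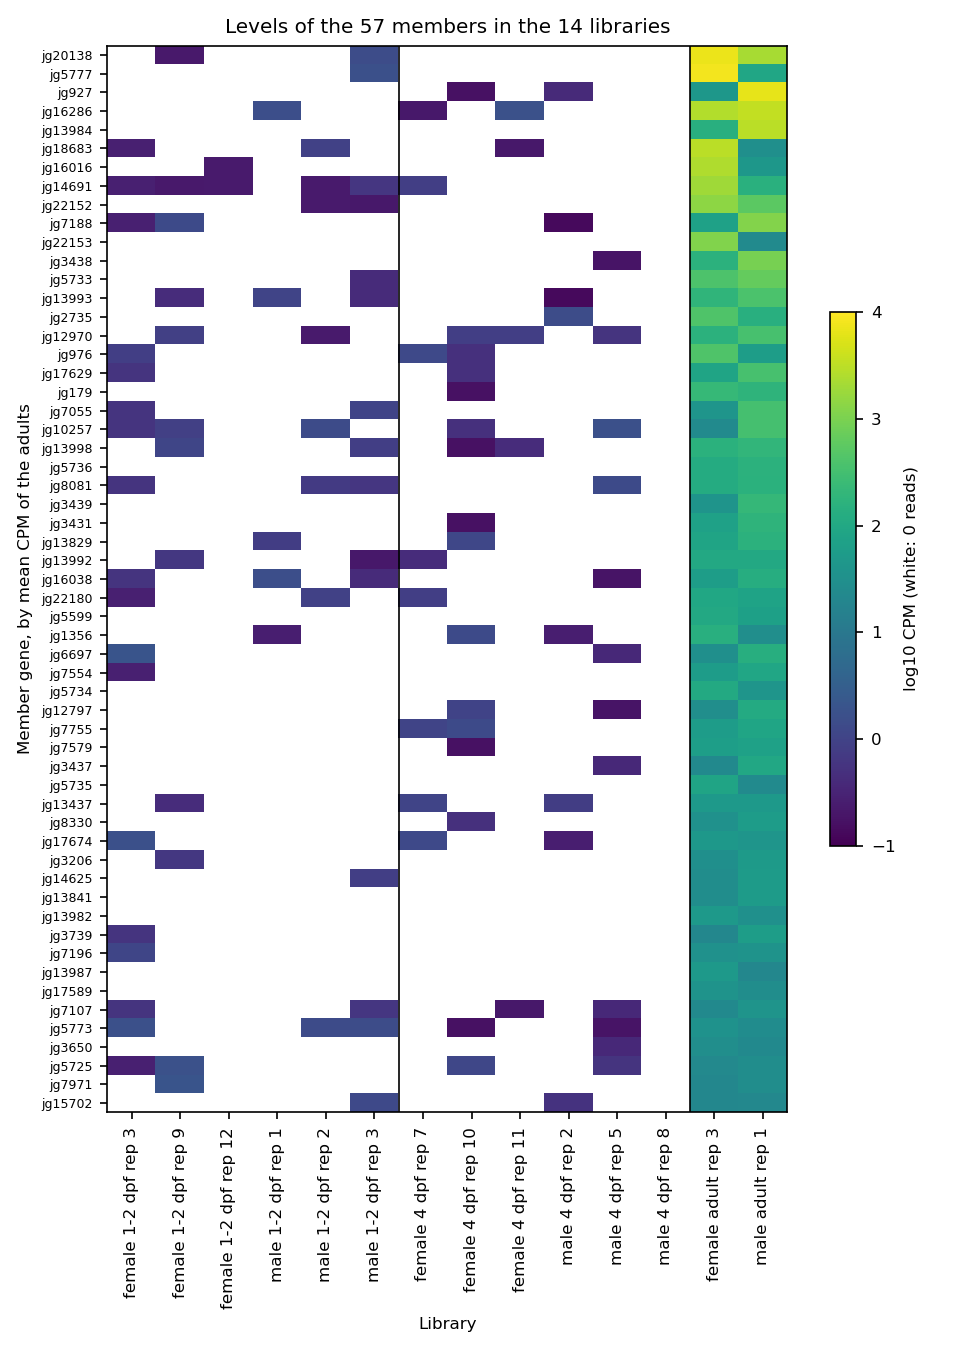
Heat map of log10 CPM of the 57 genes (rows, by mean CPM of the adults) in the 14 libraries (columns: 6 embryos at 1–2 dpf, 6 at 4 dpf and the 2 adults), with white for 0 reads. Both adult columns are filled in every row, while 109 of the 684 cells of the embryos hold a read.

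The gene with the highest mean of the adults was jg20138, with 24303 reads in the adult female (7270 CPM, 95% exact Poisson interval 7179 to 7362) and 4036 in the adult male (2192 CPM, 2125 to 2261). In embryos it had 8 reads in all, 7 of them in male replicate 3 at 1–2 dpf (1.45 CPM) and 1 in female replicate 9 of the same stage. It was the 19th gene by reads in the female library and the 62nd in the male. The lower of its adult levels was 1510 times its highest embryo level, so a gene near the top of both adult libraries was nearly empty in all 12 embryos. Only jg16286 had a larger ratio of this kind among the genes with more than 3 reads in an embryo. It had 2710 CPM in the adult female (9061 reads) and 3533 CPM in the adult male (6504 reads), 6 reads in male replicate 1 at 1–2 dpf, 8 in female replicate 11 and 1 in female replicate 7 at 4 dpf, and none in the other 9 embryos. The lower adult level of jg16286 was 1584 times its highest embryo level of 1.71 CPM.

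Other genes with large adult levels were high in 1 of the adults only. In the female library jg5777 had 27900 reads (8346 CPM) and was the 12th gene by reads, but it had 169 reads (91.8 CPM) in the male. Its 8 embryo reads all lay in male replicate 3 at 1–2 dpf, the embryo that also held 7 of the 8 reads of jg20138. The male counterpart was jg927, the 13th gene by reads in the male library, with 11772 reads (6395 CPM) there and 149 reads (44.6 CPM) in the female, and with 4 embryo reads, 3 of them in male replicate 2 at 4 dpf. Each of these genes thus passed the adult limit in both sexes while 1 sex carried nearly all of its reads.

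At the lower end, the genes just inside the adult limit were jg15702 (20.3 CPM in its lower adult), jg7971 (20.6 CPM) and jg13987 (20.6 CPM, 38 reads in the male). Just outside it were jg16219 (19.6 CPM), jg1383 (19.6 CPM) and jg3442 (19.4 CPM in the female, with 1372 CPM in the male). Nearest inside the embryo limit were jg7971 (1.96 CPM in its highest embryo), jg6697 (1.95 CPM) and jg5725 (1.74 CPM). Nearest outside it were jg18768 (2.12 CPM), jg8543 and jg4522 (both 2.14 CPM). These genes differ from their neighbours across a limit by a few reads at most, so the number of 57 follows from the limits. Genes at or below 2 CPM in each embryo that reached 20 CPM in the adult female alone numbered 84. Those that reached it in the adult male alone numbered 94. How many genes reach 20 CPM in a single adult at any embryo level was not counted, so these numbers are not set against the 57.

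Many of these genes differed between the adult female and the adult male. With 1 CPM added to both levels, 13 of the 57 genes (22.8%) were at least 2-fold higher in the female and 16 (28.1%) at least 2-fold higher in the male, while 28 lay within 2-fold. Over all 2507 genes at 20 CPM or more in both adults, 276 (11%) were at least 2-fold higher in the female and 522 (20.8%) in the male. For an 8-fold difference in either direction the counts were 10 of 57 (17.5%) and 63 of 2507 (2.51%). The 78 genes whose highest embryo lay between 2 and 5 CPM fell in between, with 4 genes (5.13%) 8-fold apart, 14 (17.9%) at least 2-fold higher in the female and 16 (20.5%) in the male. The median absolute log2 ratio was 1.03 for the 57 genes and 0.65 for all adult genes. Scaling the adults by TMM (trimmed mean of M-values) in place of library totals moved the median log2 ratio of all adult genes from −0.28 to 0.09 and that of the 57 genes from −0.38 to −0.01. The counts of the 57 genes were then 13 higher in the female and 12 in the male, those of all adult genes 444 (17.7%) and 328 (13.1%), and the counts for 8-fold stayed at 10 and 2.51%. So the greater share of 2-fold differences toward the male rests on the scaling. Each sex is 1 library, and whether another female and male would differ in the same genes was not tested.

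**Figure D3:**
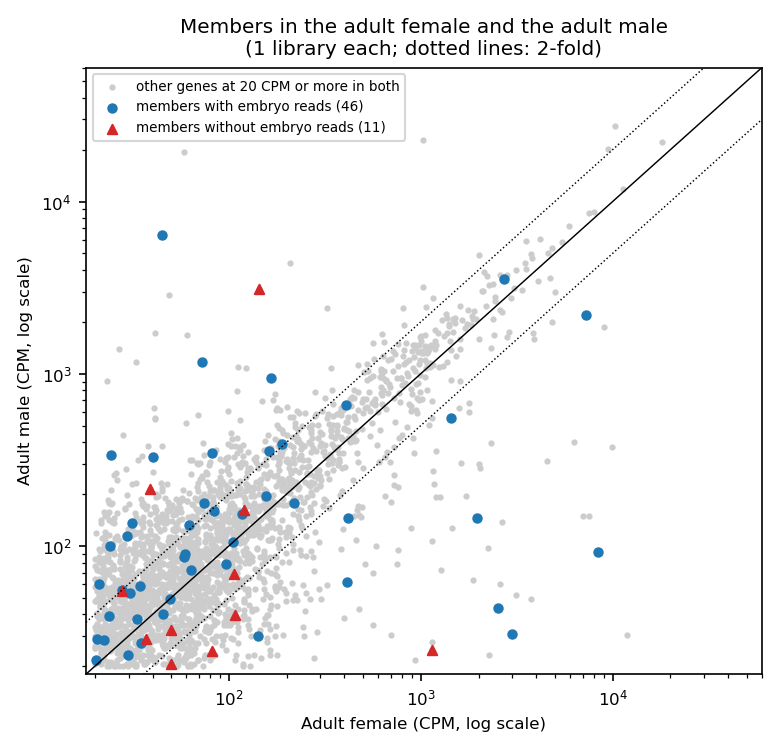
Level in the adult male against level in the adult female (CPM, log scales, 1 library each) for the 57 genes, with circles for the 46 with embryo reads and triangles for the 11 without, and for the other genes at 20 CPM or more in both adults (grey). The solid line marks equal levels and the dotted lines 2-fold, and 29 of the 57 genes lie outside the dotted lines.

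The genes farthest toward the female were jg18683, jg5777, jg16016, jg22153 and jg14691. For jg18683, 9965 reads (2981 CPM) in the female stood against 57 reads (31.0 CPM) in the male, a ratio of 96.3 (95% exact conditional binomial interval 74.2 to 127). The ratio of jg5777 was 90.9 (78.2 to 106), and these intervals overlap, so their order is not fixed by the counts. For jg16016, 8475 reads (2535 CPM) stood against 80 (43.5 CPM), a ratio of 58.3. For jg22153 the female level was 1141 CPM (3814 reads) and the male level 25 CPM (46 reads), a ratio of 45.7. The ratio of jg14691 was 13.4, from 1958 CPM (6544 reads) in the female and 146 CPM (269 reads) in the male. All 5 thus had at least 3814 reads in the female and at most 269 in the male.

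Toward the male, jg927 led with a male to female ratio of 143 (95% exact conditional binomial interval 122 to 170). It was followed by jg13984, with 5687 reads (3089 CPM) in the male and 481 (144 CPM) in the female, a ratio of 21.5 (19.6 to 23.6). For jg7188 the male had 2158 reads (1172 CPM) and the female 242 (72.4 CPM), a ratio of 16.2. The ratios of jg10257 (337 CPM in the male, 24.2 CPM in the female) and of jg7055 (329 and 40.1 CPM) were 13.9 and 8.21. Here the lower adult, the female, still had between 81 and 481 reads in each of the 5 genes.

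Between these extremes lay genes with like levels in both adults or with a smaller difference. For jg22152 the female had 1433 CPM (4791 reads) and the male 552 CPM (1016 reads). For jg3438 the order was reversed, with 166 CPM (556 reads) in the female and 940 CPM (1731 reads) in the male, a male to female ratio of 5.65. Of the 12 genes with the highest mean of the adults, jg16286 alone lay within 2-fold, while 7 were at least 2-fold higher in the female and 4 in the male. A ranking by the mean favours genes very high in a single adult. The same shares among the top of all adult genes were not taken, so these counts are a description.

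In the embryos the 57 genes had 372 reads in all, against 153729 in the 2 adults. Of the 684 pairs of a gene and an embryo, 109 (15.9%) had a read, 31 of them a single read and 66 of them 1 to 3 reads, and the highest count was 11 reads, of jg2735 in male replicate 2 at 4 dpf. For 23 genes the highest embryo level was at most 0.5 CPM. Reads turned up in 1 embryo for 17 genes, in 2 or 3 embryos for 19, in 4 or more for 10 and in none for 11. The gene seen in most embryos was jg14691, with 11 reads over 6 embryos and at most 4 in any of them. By contrast the 11 reads of jg2735 all came from 1 embryo.

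The rule capped every embryo at 2 CPM whatever the adult level, so the embryo reads are set out by adult level as values only. The 28 genes with the higher adult means had 145981 adult reads and 196 embryo reads, and the 29 with the lower means had 7748 adult reads and 176 embryo reads. Genes without any embryo read were found in both, 4 in the upper part and 7 in the lower. The genes with most embryo reads were jg10257 (24 reads), jg5773 (21), jg5725 (19), jg12970 (17) and, with 15 each, jg16286 and jg8081. Of these, jg5725 and jg5773 were among the lowest in adults: jg5725 had 22.4 CPM in the female and 28.2 CPM in the male, and jg5773 had 35.0 and 27.2 CPM.

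The 11 genes without a read in any embryo were jg13984, jg22153, jg5736, jg3439, jg5599, jg5734, jg5735, jg13841, jg13982, jg13987 and jg17589. A count of 0 over the 12 embryos allows a pooled level of up to 0.0534 CPM (3 reads of all embryo reads). Against the largest floor of a single embryo, 3 reads or 1.12 CPM, their lower adult level was at least 18.4-fold (jg13987) to at least 128-fold (jg13984) higher. For jg5736, with 120 CPM (400 reads) in the female and 162 CPM (299 reads) in the male, it was at least 106-fold higher. For jg5599 the adult levels were 106 CPM (354 reads) in the female and 68.4 CPM (126 reads) in the male, at least 60.9-fold above that floor. With 38.6 CPM (129 reads) in the female and 213 CPM (393 reads) in the male, jg3439 was at least 34.3-fold above it, and jg22153 at least 22.2-fold. With each embryo left out in turn, 11 to 15 of the same 57 genes had no read in the remaining embryos.

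Embryos of both stages carried a few of these reads. At 1–2 dpf the summed level of the 57 genes was 12.8, 10.4 and 0.462 CPM in female replicates 3, 9 and 12 and 5.37, 6.08 and 12 CPM in male replicates 1, 2 and 3, a mean of 7.86 ± 4.75 CPM (SD, n = 6). At 4 dpf it was 6.99, 9.82 and 3.42 CPM in female replicates 7, 10 and 11 and 4.02, 6.37 and 0 CPM in male replicates 2, 5 and 8, a mean of 5.10 ± 3.39 CPM (SD, n = 6). The stages overlapped over most of their range, and in each the lowest value belonged to the embryo named above as standing apart. Without these embryos the means were 9.35 ± 3.42 CPM and 6.13 ± 2.56 CPM (SD, n = 5 each), and the ranges still overlapped. By sex the sums were 7.32 ± 4.66 CPM in females and 5.65 ± 3.90 CPM in males (SD, n = 6 each), again with overlapping ranges. The number of the 57 genes with a read ran from 2 to 18 per embryo at 1–2 dpf (median 10) and from 0 to 16 at 4 dpf (median 8). Over the stages, 23 genes had reads at both, 12 at 1–2 dpf only and 11 at 4 dpf only.

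**Figure D4:**
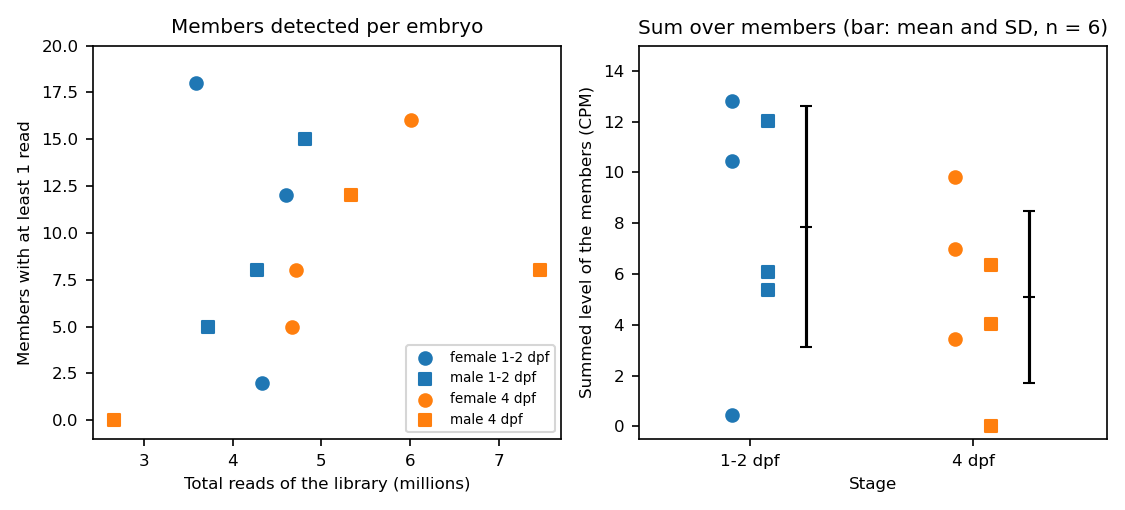
Left, number of the 57 genes with at least 1 read against total reads of the library, for each of the 12 embryos; right, summed level of the 57 genes (CPM) by stage, with circles for females, squares for males and bars for the mean and SD (n = 6 embryos). The embryo with the fewest total reads had 0 of the genes, and the summed levels of the stages overlap, with means of 7.86 and 5.10 CPM.

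Changes of these genes between the stages or sexes of embryos were tested with edgeR. All genes with at least 15 reads in the 12 embryos entered. The rule did not use these contrasts, but its cap of 2 CPM in each embryo left out genes raised above it in any group. Of 12000 genes tested, 702 (5.85%) were called between 1–2 and 4 dpf at an adjusted p-value under 0.05. Only 6 of the 57 genes had enough reads to enter (jg8081, jg10257, jg12970, jg5773, jg16286 and jg5725), and of these edgeR called 0, also at an unadjusted p under 0.05, while DESeq2 gave none of the 6 an adjusted p-value. Between female and male embryos, with stage as a term, edgeR called 2 of 12000 genes (0.0167%) and 0 of the 6, again with 0 at an unadjusted p under 0.05 and 0 called by DESeq2. When every gene with a read was tested, 46 of the 57 genes entered and edgeR called 0 in either comparison, against 670 and 3 of all 14552 genes. At an unadjusted p under 0.05 there were 9 of the 46 (19.6%) between the stages and 2 (4.35%) between the sexes, near the shares of 21.3% and 5.60% over all genes of the same fit. At these read numbers and under that cap a change in embryos was not detectable, and its absence is not shown.

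The gene closest to the threshold between the stages was jg5773. Its reads at 1–2 dpf lay in female replicate 3 (6 reads), male replicate 2 (6) and male replicate 3 (7), with 0 in the other 3 embryos. A single read each was found at 4 dpf in female replicate 10 and male replicate 5, and the other 4 embryos had 0. The log2 fold change from 1–2 to 4 dpf was −3.21 (standard error 1.52, adjusted p = 0.235, edgeR), and the stages overlapped at 0. The other 5 genes had adjusted p-values of 0.862 or more in edgeR, and their reads were scattered. The 24 reads of jg10257, for example, came as 2 and 4 in female replicates 3 and 9 and 6 in male replicate 2 at 1–2 dpf, and as 3 in female replicate 10 and 9 in male replicate 5 at 4 dpf. Both stages thus had 12 reads of this gene.

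Some of the 57 genes stood next to each other by gene number, which the rule did not use apart from the stretch left out. With a step of at most 5 numbers, 17 of the 57 genes (29.8%) formed 5 runs, and 11 (19.3%) had another of the genes at the very next number. Among the 78 adult genes whose highest embryo lay between 2 and 5 CPM, 10 (12.8%) lay within 5 numbers of another and 4 (5.13%) at the next number. In the far denser set of all 2507 adult genes these shares were 79.4% and 33.1%. Within a run the genes of the table also followed each other row by row, but positions on a chromosome were not used here. Neighbouring genes can be similar copies, and how the pipeline treats reads that map to more than one place is not given in the sources used here, so levels of single genes in a run are uncertain as far as reads could be split among copies.

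The longest run reached from jg13982 to jg13998 and held 6 of the 57 genes among 15 genes. In it, jg13984 was high in the male (3089 CPM, against 144 CPM in the female), and jg13993 (190 CPM in the female, 390 CPM in the male) had a male to female ratio of 2.05. The levels of jg13998 (156 and 196 CPM) and jg13992 (106 CPM in both) were alike in both adults, whereas jg13982 (49.7 CPM in the female, 32.6 CPM in the male) and jg13987 (49.96 and 20.6 CPM) were higher in the female. Together the 6 genes had 27 embryo reads, all of them from jg13992 (6), jg13993 (9) and jg13998 (12). Of the other 9 genes of the run, chosen after their values were seen, 5 were at or below 2 CPM in each embryo. The other 4 had highest levels from 2.06 to 12.9 CPM. Low levels in embryos are common: of all 19421 genes, 14552 had any embryo read and 12000 had at least 15. The share of all genes at or below 2 CPM was not taken, so these values are a description.

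One of those neighbours, jg13986, was the gene with most reads in the whole adult male library. It had 34427 reads (10298 CPM) in the adult female and 50465 reads (27413 CPM) in the adult male, and 267 reads over the embryos with a highest level of 12.9 CPM. It failed the embryo limit, yet its lower adult level was 796 times its highest embryo level. Others of the run were found in 1 adult only. The female had 4695 reads (1404 CPM) of jg13990 and the male 0, at least 862-fold less against a floor of 3 reads in the male library. The female also had 318 reads of jg13983 (95.1 CPM, at least 58.4-fold above the male) and 258 reads of jg13988 (77.2 CPM, at least 47.4-fold above), each with 0 in the male. In jg13985 the male had 116 reads (63 CPM, at least 70.2-fold above the female) and the female 0. Next after the run, jg13999 had 60.7 CPM in the female, 1673 CPM in the male and at most 18.9 CPM in an embryo. It was followed by jg14000, with 36.5 CPM in the female, 5.98 CPM in the male and 0 embryo reads. Before the run, jg13977, jg13978, jg13979 and jg13981 reached 120, 727, 130 and 102 CPM in an embryo. The embryo median of jg13981 was 0.554 CPM, however, and jg13980, with 0 adult reads, reached 1.66 CPM.

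**Figure D5:**
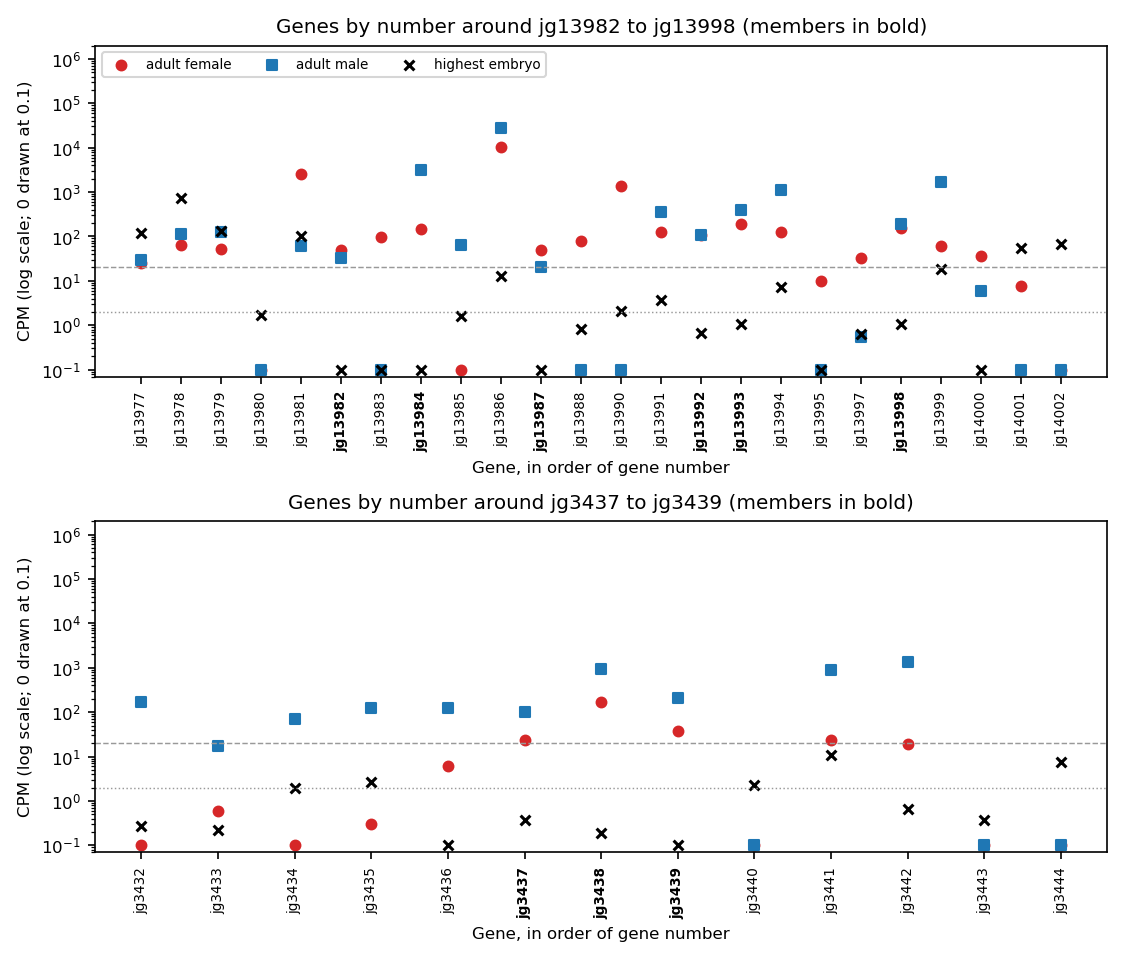
Levels (CPM, log scale, 0 drawn at 0.1) in the adult female, the adult male and the highest embryo for genes in order of number around jg13982 to jg13998 (top) and around jg3437 to jg3439 (bottom), with genes of the set in bold, a dashed line at 20 CPM and a dotted line at 2 CPM. In the upper plot jg13986 stands highest in both adults, at 10298 and 27413 CPM, and in the lower plot the male lies above the female in all 10 genes with an adult read.

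In the run jg5733 to jg5736 all 4 consecutive genes belong to the set, with 2 embryo reads among them, both of jg5733. The levels of jg5733 were 410 CPM in the female (1369 reads) and 662 CPM in the male (1219 reads), and those of jg5736 were 120 and 162 CPM. The genes between them leaned the other way, with 108 CPM in the female and 39.7 CPM in the male for jg5734 and 81.4 and 24.4 CPM for jg5735, a female to male ratio of 2.72 and 3.33. By library totals, neighbours in this run thus differed in the direction of the sexes. The male to female ratios of jg5733 and jg5736 were only 1.62 and 1.36, however. Ratios this small depend on the scaling of the adults, and each sex is 1 library. The next gene in the table after the run, jg5738, was found in the male alone, with 1020 reads (554 CPM) against 0 in the female, and reached 2.68 CPM in an embryo.

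In the run jg3437 to jg3439 all 3 genes were higher in the male. The levels were 23.9 CPM in the female and 99.9 CPM in the male for jg3437, 166 and 940 CPM for jg3438, and 38.6 and 213 CPM for jg3439, so that the male to female ratio was 4.18, 5.65 and 5.53. They had 3 embryo reads in all. Genes around them, chosen after their values were seen, were male-high too: jg3432 (311 reads, 169 CPM) and jg3434 (132 reads, 71.7 CPM) had reads in the male and 0 in the female, jg3436 had 5.98 CPM in the female and 127 CPM in the male, jg3441 had 23.0 and 907 CPM, and jg3442 had 19.4 and 1372 CPM. A further gene of the set, jg3431, lay 6 numbers before the run with 74.2 CPM in the female and 177 CPM in the male. Of this stretch, jg3432, jg3434, jg3436 and jg3442 met the male and the embryo limits and missed the set by their female level alone.

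The remaining runs held 2 genes each. The female was higher in both jg22152 and jg22153, and the next gene, jg22154, had 14198 reads (4247 CPM) in the female and 27 reads (14.7 CPM) in the male with at most 0.835 CPM in an embryo, so that it failed only the adult limit in the male. In the run jg5773 to jg5777 the 3 genes in between had reads in embryos, with highest levels of 18.9 CPM (jg5774), 73.3 CPM (jg5775) and 46.2 CPM (jg5776), so this pair is not an unbroken block.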

How the data were processed

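RNA of 12 single embryos and 2 adults was prepared with a SMART-Seq mRNA kit with UMIs. The authors deposited raw counts per gene from the Cogent NGS Analysis Pipeline (version 2.0.1, per the submitters' processing notes), taken from all reads without collapsing UMIs. The assembly is that of the study; its build name is not given in the sources used here. Columns were assigned to samples by barcode. CPM is count over column total. The 57 genes and all lists were chosen with earlier results of these data known.

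Tests between embryos used edgeR 4.0.16 (limma 3.58.1, R 4.3.3) and its quasi-likelihood F statistic, two-sided, with TMM, genes with at least 15 reads over 12 embryos and Benjamini-Hochberg adjusted p-values over all genes tested (threshold 0.05). Standard errors are the absolute log2 fold change over the square root of F. The sexes were fitted with stage as a term. The method was tested on simulated data. The changed genes in it had higher levels than any gene of the set has in embryos, so it does not cover detection at their levels. Adults were compared by ratios, with exact Poisson intervals for levels and exact conditional binomial intervals for ratios (95%), without a test. Python 3.11.15 and matplotlib 3.10.9 served for figures.

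Named genes are the 12 with the highest adult mean, the 5 at either end of the sex ratio, the 5 with most embryo reads, the 5 highest without any, those in the 3 longest runs by number, the 3 nearest to each limit on either side, and the study's qPCR reference genes. Other genes were named after their values were seen. Alternatives were other limits of the rule, TMM scaling, DESeq2 1.42.0, RLE scaling, other filters and terms, 2 dpf embryos only, each embryo left out, and, chosen after seeing the data, both embryos that stand apart left out. CUT&Tag, imaging, qPCR and lifespan data are not analysed here.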

Additional observations from a re-analysis of the deposited data

Results flagged for a closer look

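In 7 of the 20 groups of 6 embryos examined, the highest or lowest embryo stood far from the other 5 for its group's range. Chance flags about 1 in 20 groups of continuous values, a rate that does not apply to the levels of single genes below, since most of their embryos are at 0 and a lone embryo with reads then stands apart by construction. Female replicate 12 at 1–2 dpf had reads on 6414 genes, against 10045 to 10842 in the others of its stage. In male replicate 5 at 4 dpf, jg10257 reached 1.69 CPM, against 0 to 0.499 CPM in the others, and jg8081 reached 1.31 CPM, against 0. In female replicate 9 at 1–2 dpf, jg12970 reached 0.870 CPM (others 0 to 0.234) and jg5725 reached 1.74 CPM (others 0 to 0.278). The gene jg16286 stood out at both stages, with 1.61 CPM in male replicate 1 at 1–2 dpf (others 0) and 1.71 CPM in female replicate 11 at 4 dpf (others 0 to 0.212). Each of the levels of single genes rests on 4 to 9 reads.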

How the results depend on the processing

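The number of genes in the set followed the limits: 34 at 1 CPM and 130 at 5 CPM as the embryo limit, 28 with at most 3 reads in each embryo, 95 at 10 CPM and 27 at 50 CPM as the adult limit. It was 75 with TMM scaling, 60 with the Z stretch kept, 57 to 71 when single embryos were left out, and 66 without female replicate 12 at 1–2 dpf and male replicate 8 at 4 dpf. Between the stages DESeq2 called 1328 genes in place of 702, and edgeR called 499 to 781 when single embryos were left out. Between the sexes DESeq2 called 20 genes in place of 2, edgeR called 0 without a term for stage, 0 without both embryos that stand apart, and 2 to 4 when single embryos were left out (4 without female replicate 7 at 4 dpf). In every setting that tested any gene of the set, 0 were called between stages or sexes. The rule's cap of 2 CPM in each embryo limits what these counts could show. The filterByExpr setting let none of the genes enter, and DESeq2 gave none an adjusted p-value between the stages, so these give no value. No paired analysis was possible because the groups compared share fewer than 2 replicate numbers. Depth limits the embryo side: 3 reads are up to 1.12 CPM, and 6 of the 57 genes had 15 reads or more over all embryos.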
